A study of Mus musculus with 8 samples.

Results

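The genes described here are 10 AP-1 and immediate-early genes: the FOS family (*Fos*, *Fosb*, *Fosl1* and *Fosl2*), the JUN family (*Jun*, *Junb* and *Jund*), and *Atf3*, *Egr1* and *Ier3*. They were taken by symbol from RNA-seq of costal (rib) chondrocytes, and each was found once among 52325 gene identifiers. All 10 were among the 17177 genes that could be tested. The samples were 4 wild-type and 4 *Mir140*-null libraries from mice 7 d old. Their founders were of mixed C57BL/6 and CBA/ca origin and were backcrossed onto C57BL/6J, for a number of generations that the paper does not give. In the *Mir140*-null line the miR-140 locus was deleted in zygotes with CRISPR/Cas9, so every cell of the animal carries the deletion, and both lines descend from intercrossed heterozygotes after backcrossing. Chondrocytes had been freed from the ribs of both genotypes with collagenase, and the labels give neither the day of isolation nor the time of digestion of a library. Nothing in the labels says whether a library is 1 mouse or a pool, so the p-values measure the spread between these libraries. Values are in TPM, which counts transcripts scaled for their length and for the total of the library, and levels of different genes can therefore be set side by side.

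Immediate-early genes are transcribed within minutes of a stimulus, before any new protein is made, and their mRNAs are short-lived. FOS and JUN proteins pair through leucine zippers to form AP-1, a transcription factor that acts downstream of the MAP kinases. ATF3 belongs to the same basic leucine zipper class, EGR1 is a zinc finger transcription factor, and IER3 is a small protein that modulates survival and ERK signalling. In cartilage, AP-1 is best known for its control of matrix metalloproteinase genes. Freeing cells from a tissue with enzymes is itself a known inducer of immediate-early genes.

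In *Mir140*-null chondrocytes, 6 of the 10 genes were lower than in wild-type (*Fos*, *Fosb*, *Jun*, *Jund*, *Atf3* and *Egr1*), with mean levels 2.01- to 4.63-fold below those of wild-type. None of the 10 was called higher, although *Ier3* stood above wild-type in every *Mir140*-null library. Here a gene was called when the adjusted p of limma (Benjamini-Hochberg over all genes tested) was under 0.05. Among all genes tested, 6.40% were called lower and 10.5% were called higher in *Mir140*-null. Their log2 fold changes had a median of -1.29, against -0.01 for all genes tested. At an unadjusted p under 0.05, 7 of the 10 were lower and 1 was higher, against 14.9% and 19.0% of all genes tested. A lower TPM in bulk RNA can come from fewer cells of a type or from less RNA per cell, and these cannot be told apart here.

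The sequences just upstream of the transcription start are shown for *Fos*, *Fosb*, *Jun* and *Atf3*, the genes with the largest decreases for which a promoter was at hand, because immediate-early promoters are classically switched on through short elements close to the start. Each is 150 bases immediately before the RefSeq start on GRCm38.p6, 5′ to 3′ on the strand of the gene, and that of *Atf3* lies within the span of the GENCODE gene, upstream of a shorter transcript. Capitals mark the core of the cyclic AMP response element (TGACG, or CGTCA on the other strand) and the TGACATCA element of *Jun*.
*Fos* (chr12:85473740-85473889, plus strand): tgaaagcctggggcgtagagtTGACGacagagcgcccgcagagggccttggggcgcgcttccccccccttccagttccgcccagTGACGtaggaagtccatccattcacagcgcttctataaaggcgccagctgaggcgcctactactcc
*Fosb* (chr7:19310046-19310195, minus strand): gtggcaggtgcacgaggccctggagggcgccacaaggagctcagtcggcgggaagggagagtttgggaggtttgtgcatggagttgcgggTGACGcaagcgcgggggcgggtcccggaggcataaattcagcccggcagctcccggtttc
*Jun* (chr4:95052223-95052372, minus strand): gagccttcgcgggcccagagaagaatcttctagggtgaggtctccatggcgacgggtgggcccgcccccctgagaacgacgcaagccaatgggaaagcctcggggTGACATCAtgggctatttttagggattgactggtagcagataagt
*Atf3* (chr1:191183334-191183483, minus strand): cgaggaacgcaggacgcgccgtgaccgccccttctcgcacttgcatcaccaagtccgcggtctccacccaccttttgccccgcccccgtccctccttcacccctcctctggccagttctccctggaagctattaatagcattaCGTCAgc

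RefSeq promoters, running from 250 bases before to 50 bases after the start, were found for 8 of the 10 genes, and *Fosl1* and *Egr1* had no entry. The RefSeq start of *Jund* lies upstream of the GENCODE gene, so its window is away from the start of that gene, and it held none of the motifs searched. TGACG was present on either strand in 4 of the 8 (*Fos*, *Fosb*, *Junb* and *Atf3*) and in 20.8% of all 32851 promoters. *Fos* held it at 129 and 66 bases before the start, *Fosb* at 60, *Junb* at 106 and *Atf3* at 7. TGACATCA was found in *Jun* alone, 45 bases before the start, and in 3.62% of all promoters. The full cyclic AMP response element (TGACGTCA, which contains TGACG) was in none of the 8 and in 1.79% of all promoters. The palindromic AP-1 site (TGANTCA) was likewise in none of the 8, against 7.81% of all promoters. The CArG box bound by SRF was also in none of the 8, against 1.63%. Bases farther than 250 upstream were not searched, nor were *Fosl1* and *Egr1*. Absence from the window therefore does not show that a gene lacks either site. A binding site for EGR proteins (GCGNGGGCG) was found in *Fosl2* and *Fosb* and in 5.55% of all promoters. The NF-kB site was found in *Fosl2*, *Fosb*, *Fos* and *Ier3* and in 4.51% of all promoters. Both TGACG and the NF-kB site were found in genes called lower and in genes not called, and *Jun*, which was lower, held neither. These are matches of letters in one window per gene, and no binding was measured.

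*Fos* encodes the c-FOS subunit of AP-1 and lies at chr12:85473890-85477273 on the plus strand (mm10, 4 exons, ENSMUSG00000021250). Its level in the 4 wild-type libraries was 2761, 951, 1418 and 1541 TPM. In the 4 *Mir140*-null libraries it was 254, 305, 571 and 311 TPM. The genotypes did not overlap, and wild-type replicate 1 was the highest library of all. The mean fell from 1668 ± 772 to 360.2 ± 143 TPM (SD, n = 4 each), and the log2 fold change of *Fos* was -2.17 with a standard error of 0.35 (adjusted p = 0.00993). Without wild-type replicate 1 the log2 fold change was -1.89 (adjusted p = 0.0192).

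*Fosb*, a FOS relative that is induced with *Fos* and lies at chr7:19302696-19310051 on the minus strand (ENSMUSG00000003545), was measured at 727, 473, 529 and 646 TPM in wild-type. In *Mir140*-null it was 116, 232, 227 and 179 TPM. Every *Mir140*-null library was below every wild-type library, and the spread within a genotype was narrower than for *Fos*. The mean fell from 594 ± 114 to 189 ± 53.8 TPM (log2 fold change -1.68, standard error 0.24, adjusted p = 0.00732).

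*Fosl1* and *Fosl2* encode the FOS-related subunits that lack the strong activation domain of c-FOS and persist longer after a stimulus. *Fosl1* (ENSMUSG00000024912, chr19:5447547-5455946, plus strand) was at 172, 199, 169.8 and 176 TPM in wild-type and at 208, 250.04, 149.9 and 169.6 TPM in *Mir140*-null. The log2 fold change of *Fosl1* was 0.09 with a standard error of 0.16 (adjusted p = 0.720), and its libraries overlapped. *Fosl2* (ENSMUSG00000029135, chr5:32135801-32157842, plus strand) was at 47.8, 72.7, 58.1 and 67.8 TPM in wild-type and at 45.8, 55.5, 59.3 and 65.9 TPM in *Mir140*-null. It was the lowest of the 10 genes in all 8 libraries, and its log2 fold change was -0.11 with a standard error of 0.16 (adjusted p = 0.658). The sign of both values turned under some alternatives, so no direction is given for them.

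**Figure D1:**
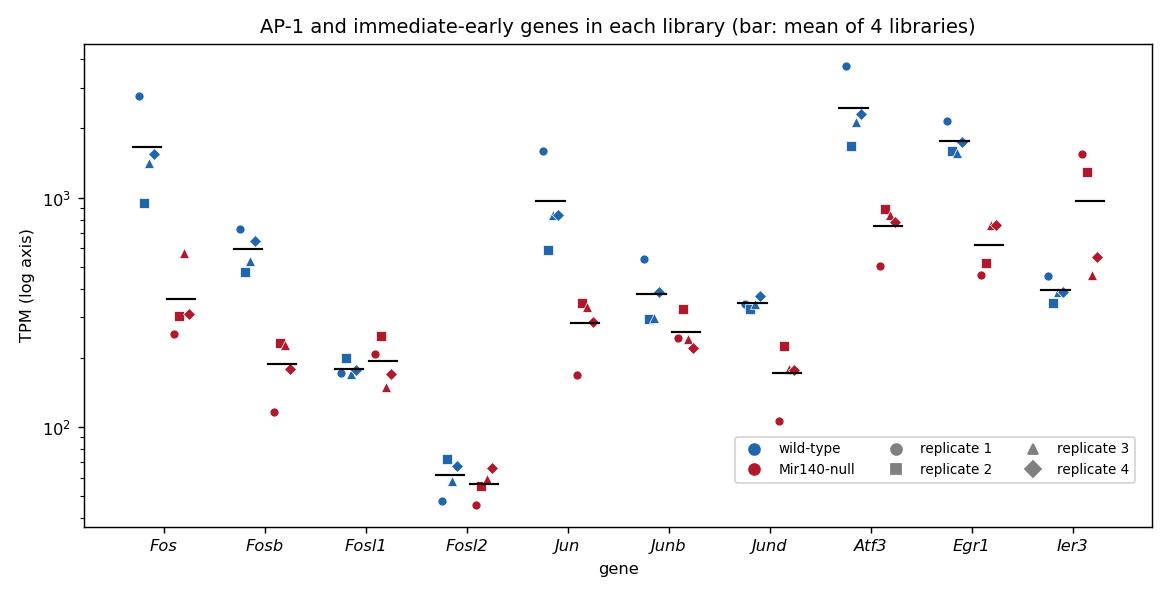
TPM (log axis) of each of the 10 genes in every library, blue for wild-type and red for *Mir140*-null, with the replicate number as the symbol and a bar at the mean of 4 libraries. *Fos*, *Fosb*, *Jun*, *Jund*, *Atf3* and *Egr1* are lower in all 4 *Mir140*-null libraries, *Fosl1*, *Fosl2* and *Junb* overlap, and *Ier3* is at 1548 and 1287 TPM in *Mir140*-null replicates 1 and 2.

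Within the FOS family, the share held by *Fos* was 74.5%, 56.1%, 65.2% and 63.4% of the family's TPM in wild-type. In *Mir140*-null it was 40.7%, 36.2%, 56.7% and 42.9%. *Mir140*-null replicate 3 was thus just above the lowest wild-type library. The share held by *Fosl1* was 4.63% to 11.8% in wild-type and 14.9% to 33.4% in *Mir140*-null, so that the genotypes did not overlap although the TPM of *Fosl1* did. The share held by *Fosb* was 19.6% to 27.9% in wild-type and 18.6% to 27.6% in *Mir140*-null. The ratio of *Fos* to *Fosl1* was 16.1, 4.77, 8.35 and 8.74 in wild-type and 1.22, 1.22, 3.81 and 1.83 in *Mir140*-null.

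*Jun* encodes c-JUN, the main partner of c-FOS, and is a single-exon gene at chr4:95049034-95052222 on the minus strand (ENSMUSG00000052684). It was at 1595, 589, 838 and 839 TPM in wild-type and at 169, 348, 332 and 287 TPM in *Mir140*-null. The groups did not overlap, with wild-type replicate 1 again highest and *Mir140*-null replicate 1 lowest. The mean fell from 965 ± 436 to 284 ± 81.0 TPM (log2 fold change -1.72, standard error 0.33, adjusted p = 0.0158).

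*Junb*, which can restrain c-JUN activity and lies at chr8:84974484-84978718 on the minus strand (ENSMUSG00000052837), was at 539.9, 297, 299 and 388 TPM in wild-type. In *Mir140*-null it was 244, 326, 243 and 222 TPM. *Mir140*-null replicate 2 was above wild-type replicates 2 and 3, and the log2 fold change of -0.53 (standard error 0.21) did not pass the test (adjusted p = 0.122). *Jund* (ENSMUSG00000071076, chr8:70698949-70700616, plus strand) was at 344, 326, 343 and 372 TPM in wild-type and at 107, 226, 179.7 and 177 TPM in *Mir140*-null. The wild-type libraries of *Jund* lay close together, and all were above the *Mir140*-null libraries. The mean of *Jund* fell from 346 ± 18.9 to 172 ± 49.3 TPM (log2 fold change -1.05, standard error 0.21, adjusted p = 0.0168).

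The share of the JUN family held by *Jun* was 64.3%, 48.6%, 56.6% and 52.5% in wild-type and 32.5%, 38.6%, 44.0% and 41.8% in *Mir140*-null. The share held by *Junb* was 20.2% to 24.5% in wild-type and 32.2% to 47.0% in *Mir140*-null. *Jun* thus held less and *Junb* more of the family in every *Mir140*-null library, while the share of *Jund* overlapped (13.9% to 26.9% against 20.5% to 25.8%). *Jun* exceeded *Junb* by 2.95, 1.99, 2.80 and 2.16 times in wild-type, and the ratio was 0.690, 1.07, 1.37 and 1.29 in *Mir140*-null. The ratio of *Fos* to *Jun*, the classic AP-1 pair, overlapped between genotypes (1.61 to 1.84 against 0.876 to 1.72). The shares and ratios are descriptions of the same TPM and were not tested.

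**Figure D2:**
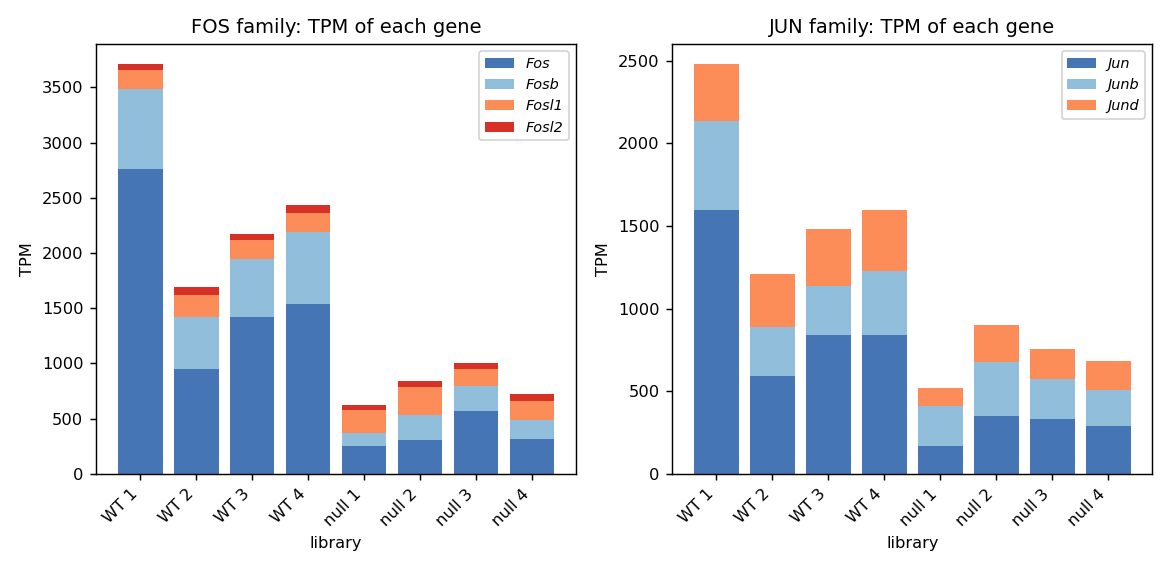
Stacked TPM of the FOS family (left) and the JUN family (right) in each of the 8 libraries, 1 bar a library. *Fos* holds 56.1% to 74.5% of the FOS family in wild-type and 36.2% to 56.7% in *Mir140*-null, and *Junb* holds 32.2% to 47.0% of the JUN family in *Mir140*-null.

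*Atf3*, a stress-induced factor that can bind as a repressor or with JUN proteins, lies at chr1:191170296-191218039 on the minus strand (ENSMUSG00000026628). It was at 3745, 1674, 2127 and 2310.1 TPM in wild-type and at 505, 889, 835 and 779 TPM in *Mir140*-null. In each wild-type library, and in replicates 3 and 4 of *Mir140*-null, *Atf3* was the highest of the 10 genes. Its mean fell from 2464 ± 895 to 752 ± 171 TPM (log2 fold change -1.68, standard error 0.27, adjusted p = 0.00969), and the genotypes did not overlap.

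*Egr1*, an early growth response factor at chr18:34859823-34864984 on the plus strand (ENSMUSG00000038418), was at 2152, 1602, 1556 and 1753 TPM in wild-type. In *Mir140*-null it was 458, 518, 756 and 759.5 TPM. The lowest wild-type library was thus above the highest *Mir140*-null library. The mean fell from 1766 ± 271 to 623 ± 158 TPM, and the log2 fold change of *Egr1* was -1.53 with a standard error of 0.20 (adjusted p = 0.00596), the smallest adjusted p of the 10 genes.

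*Ier3* (ENSMUSG00000003541, chr17:35821684-35822923, plus strand) was at 454, 347, 386 and 389 TPM in wild-type. In *Mir140*-null it was 1548, 1287, 459 and 551 TPM. All *Mir140*-null libraries were above all wild-type libraries, but replicates 1 and 2 were far above replicates 3 and 4, and the lowest *Mir140*-null library lay next to the highest of wild-type. The wild-type mean was 394 ± 44.3 TPM and the *Mir140*-null mean 961 ± 539 TPM. The log2 fold change of 1.10 (standard error 0.38) did not pass the test (adjusted p = 0.0833). Without *Mir140*-null replicate 3 it was 1.39 and passed (adjusted p = 0.0359), and without *Mir140*-null replicates 1 and 2 it was 0.36 (adjusted p = 0.182). The ratio of *Fos* to *Ier3* was 2.74 to 6.08 in wild-type and 0.164 to 1.25 in *Mir140*-null.

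In all, 6 of the 10 genes were lower in every *Mir140*-null library than in any wild-type library, as were 10.2% of all genes tested. *Ier3* alone was higher in every *Mir140*-null library, as were 15.7% of all genes tested. By mean TPM the order in wild-type was *Atf3*, *Egr1*, *Fos*, *Jun*, *Fosb*, *Ier3*, *Junb*, *Jund*, *Fosl1* and *Fosl2*. The ranges of neighbours in this order overlapped except for *Fosb* and *Ier3*, *Jund* and *Fosl1*, and *Fosl1* and *Fosl2*. Compared within each library, *Atf3* was also above *Egr1*, *Fos* above *Jun* and *Jun* above *Fosb* in all 4 wild-type libraries. The other neighbours changed places in at least 1 library. In *Mir140*-null the order was *Ier3*, *Atf3*, *Egr1*, *Fos*, *Jun*, *Junb*, *Fosl1*, *Fosb*, *Jund* and *Fosl2*, and of the neighbours only *Jund* and *Fosl2* did not overlap. Within each of the 4 *Mir140*-null libraries, *Atf3* was above *Egr1*, *Egr1* above *Fos*, *Junb* above *Fosl1* and *Fosb* above *Jund*. Among the 17177 genes tested, *Atf3* ranked 60 by mean TPM in wild-type and 179 in *Mir140*-null, *Egr1* 82 and 220, and *Fos* 86 and 364. *Ier3* moved from rank 338 to rank 140, and *Fosl1* stood at 629 and 644.

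Other immediate-early genes were described by a list of 38, all of which were tested. Of these, 11 were called lower and 2 higher, and the median log2 fold change was -0.43. Of all genes tested 6.40% were called lower and 10.5% higher, and their median was -0.01. Lower were *Arc*, *Egr4*, *Rhob*, *Ier2*, *Klf2*, the NR4A nuclear receptors *Nr4a1*, *Nr4a2* and *Nr4a3*, the phosphatases *Dusp1* and *Dusp2*, and the clock gene *Per1*. Higher were *Btg1*, an antiproliferative gene, and *Ccn2*, a matricellular growth factor. In 16 of the 38 every *Mir140*-null library was below every wild-type library, and in 3 every one was above. Of all genes tested these shares were 10.2% and 15.7%. At an unadjusted p under 0.05, 18 were lower and 4 higher (all genes tested, 14.9% and 19.0%). The count called lower was 7 without wild-type replicate 4.

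*Arc*, an endosome-associated cytoskeletal regulator induced by EGR1, was at 150.5, 109, 102 and 111 TPM in wild-type and at 9.44, 14.4, 22.4 and 28.4 TPM in *Mir140*-null (log2 fold change -2.69, standard error 0.31, adjusted p = 0.00509). *Egr4*, a relative of *Egr1*, was at 93.8, 14.3, 25.7 and 31.8 TPM in wild-type and at 1.01, 2.27, 5.30 and 1.64 TPM in *Mir140*-null (-3.37, standard error 0.57, adjusted p = 0.0107). *Rhob*, a small GTPase of short half-life, fell from 613 ± 170.2 to 205 ± 40.0 TPM (-1.56, standard error 0.21, adjusted p = 0.00663). In the other direction, *Btg1* rose from 118 ± 7.96 to 298 ± 73.5 TPM (1.29, standard error 0.17, adjusted p = 0.00651).

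**Figure D3:**
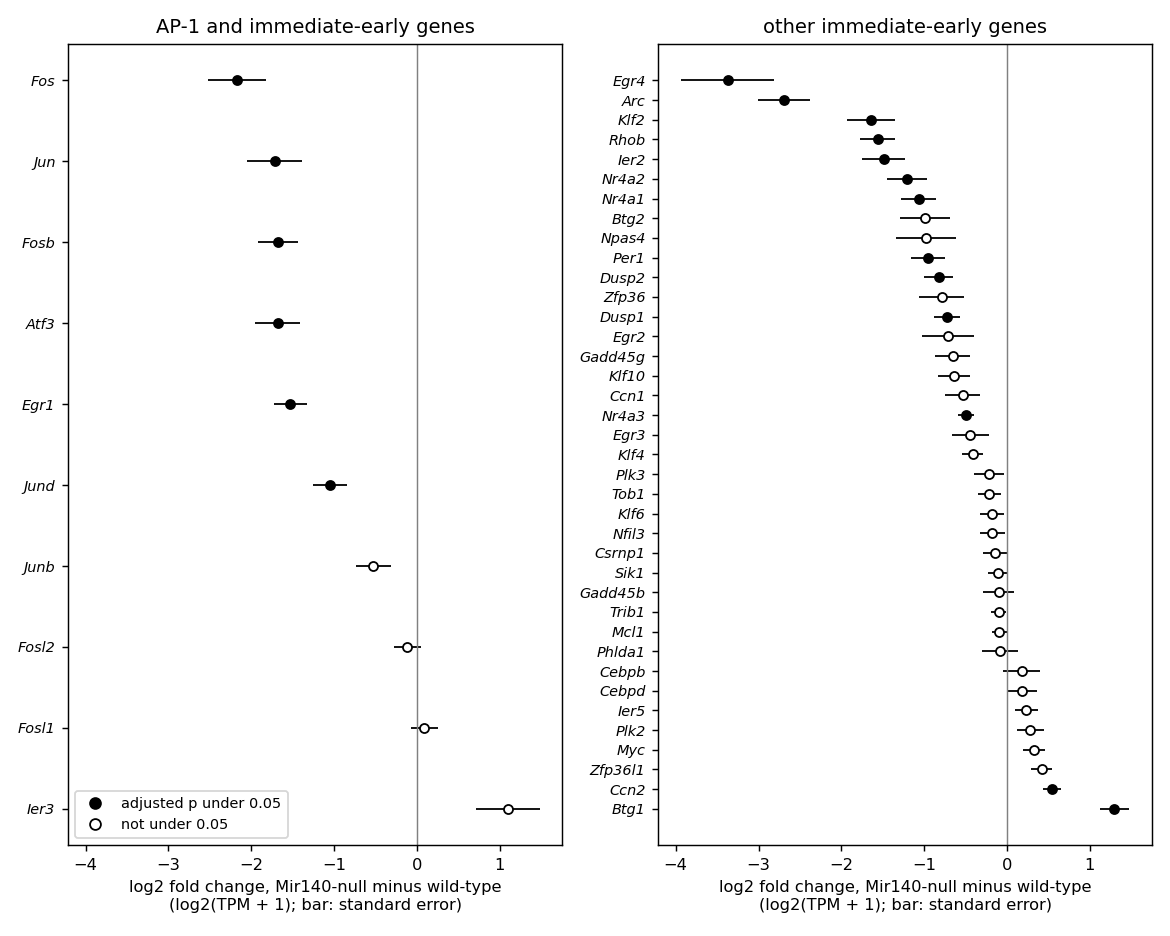
Log2 fold change, *Mir140*-null minus wild-type on log2(TPM + 1), of the 10 AP-1 and immediate-early genes (left) and of 38 other immediate-early genes (right), with bars for the standard error and filled points for an adjusted p under 0.05. On the left the filled points run from -2.17 (*Fos*) to -1.05 (*Jund*), and on the right 11 filled points are below 0 and 2 above.

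Among 13 further AP-1 family members and basic leucine zipper partners, 12 were tested, 3 were called higher and 1 lower, and the median log2 fold change was -0.04 (all genes tested, 10.5% higher, 6.40% lower and a median of -0.01). *Jdp2*, a dimerization partner that represses AP-1, rose from 23.2 ± 1.71 to 43.1 ± 13.3 TPM (log2 fold change 0.82, adjusted p = 0.0355). *Atf2*, a partner of JUN that is phosphorylated by stress kinases, rose from 15.0 ± 3.16 to 25.1 ± 4.32 TPM (0.71, adjusted p = 0.0314). *Batf3*, which lacks an activation domain, was low in both genotypes and rose from 1.93 ± 0.647 to 5.20 ± 1.37 TPM (1.08, adjusted p = 0.0193). *Maff*, a small MAF protein, fell from a mean of 132 to 93.7 TPM (-0.50, adjusted p = 0.0354). The partners that rose did so at levels well under those of *Fos* and *Jun*. Leaving out any 1 library gave 0 to 2 higher calls and 0 to 1 lower call in this list.

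Of 18 genes of the MAP kinase cascade and of SRF with its cofactors, 3 were called higher and 2 lower (median log2 fold change 0.10), where 10.5% and 6.40% of all genes tested were called. The higher genes were *Elk3* (log2 fold change 0.73, adjusted p = 0.0299), *Creb1* (0.59, adjusted p = 0.0355) and *Map2k3* (0.46, adjusted p = 0.0399), which encode an SRF cofactor, the factor that binds the cyclic AMP response element and a kinase upstream of p38. The lower genes were *Mapk9*, which encodes a JUN kinase (-0.52, adjusted p = 0.0446), and *Srf* itself (-0.56, adjusted p = 0.0498), which lies outside the rule for named genes and was chosen after its value was seen. Of 13 feedback inhibitors of MAP kinases, 3 rose and 3 fell (median 0.23), to be read against the same 10.5% and 6.40%. Among them *Spred1* (0.92, adjusted p = 0.0137) and *Spry2* (0.72, adjusted p = 0.0214), inhibitors of RAS and ERK signalling, rose. The phosphatases *Dusp14* (-0.76, adjusted p = 0.0145) and *Dusp8* (-1.33, adjusted p = 0.0216) fell. Leaving out any 1 library gave 0 to 3 calls in each direction in both lists.

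Of 7 genes for co-regulators of AP-1 or EGR proteins, 2 were called higher and 0 lower (median log2 fold change 0.37), and at an unadjusted p under 0.05 these counts were 3 and 0. Of all genes tested, 10.5% and 6.40% passed the adjusted threshold and 19.0% and 14.9% the unadjusted one. *Itch*, a ubiquitin ligase that marks JUN proteins for degradation, rose from 10.4 ± 0.330 to 16.9 ± 3.15 TPM (0.63, adjusted p = 0.0232). *Cops5*, a signalosome subunit first described as a JUN coactivator, rose from 32.4 ± 3.12 to 47.4 ± 5.92 TPM (0.53, adjusted p = 0.0249). *Cop1*, another ligase that acts on JUN, was at 67.3 ± 7.36 and 83.2 ± 18.4 TPM (0.28, adjusted p = 0.262). Leaving out any 1 library gave 0 to 2 higher calls.

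Of 18 genes described as AP-1 targets, 7 were called higher in *Mir140*-null and 1 lower, and their median log2 fold change was 0.32. Among all genes tested, 10.5% were called higher and 6.40% lower, and the median was -0.01. *Mmp3*, the stromelysin-1 gene, was at 48.0, 102, 76.2 and 111 TPM in wild-type and at 994, 619, 457 and 529 TPM in *Mir140*-null, without overlap (log2 fold change 2.94, standard error 0.32, adjusted p = 0.00405). *Plau*, the urokinase gene, was at 111, 106, 91.5 and 125 TPM in wild-type and at 359, 429, 216 and 223 TPM in *Mir140*-null (1.44, standard error 0.23, adjusted p = 0.0100). *Cd44*, a hyaluronan receptor, rose from 93.9 ± 19.9 to 220 ± 22.3 TPM (1.24, standard error 0.17, adjusted p = 0.00699). *Mmp10*, another stromelysin gene, rose from 12.6 ± 2.53 to 24.1 ± 3.34 TPM (0.90, standard error 0.17, adjusted p = 0.0139). The other 3 higher genes, *Timp1*, *Plaur* and *Ptgs2*, encode a metalloproteinase inhibitor, the urokinase receptor and the inducible cyclooxygenase. The gene called lower, *Lor*, was under 1 TPM in every library. It passed the filter for testing (0.5 TPM in at least 4 libraries) only through wild-type, where it was at 0.514 to 0.962 TPM. In *Mir140*-null it was at 0.151 to 0.287 TPM, so its call partly follows from the filter. Many other factors also regulate these genes, and nothing here measured AP-1 activity.

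miR-140-3p, a mature strand of the deleted miRNA, was compared with the 3′UTRs of the 10 genes because the loss of a miRNA can raise its direct targets. Its mature sequence in RefSeq (GRCm38.p6, chr8:107551288-107551308, plus strand) is shown with its seed in capitals.
miR-140-3p: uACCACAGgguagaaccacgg
The site paired to this seed is CTGTGGT, and the site of the isomiR shifted by 1 base is CCTGTGG, and both can lie in one stretch, offset by 1 base. In the longest annotated 3′UTR, *Fosl2* held 2 of the first and 3 of the second, and *Atf3* held 1 and 2. The other 8 genes held neither, *Ier3* among them. For comparison, 18.9% and 20.1% of the 13056 tested genes with a 3′UTR held the first and the second site. Sites of miR-140-5p were not analysed here.

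Several properties of the libraries moved with genotype or set single libraries apart. The summed TPM of the 10 genes was 12538, 6531, 7725 and 8482 in wild-type and 3654, 4438, 3812 and 3501 in *Mir140*-null. Mitochondrial transcripts were 4.06% to 6.99% of TPM in wild-type and 8.41% to 10.1% in *Mir140*-null, with no overlap, and the 6 calls were also made on TPM computed without mitochondrial genes. Between 17128 and 17950 genes reached 0.5 TPM in wild-type and between 15800 and 17435 in *Mir140*-null. The precursor *Mir140* was listed at 0 in 7 libraries, wild-type included. A value of 8.86 TPM was listed for *Mir140* in the library labelled *Mir140*-null replicate 2, against its label, although poly(A) RNA-seq does not measure mature miRNAs. The paper gives only a lower bound for the reads of a sample, so the number of reads behind this value is unknown. The paper reports that genotypes were established by ear-notch PCR and Sanger sequencing. It also reports qRT-PCR of both mature strands of the miRNA in rib chondrocyte RNA, with a significant difference marked between genotypes. According to the paper, RNA of several samples measured in that way was then used for RNA-seq. Whether *Mir140*-null replicate 2 was among them is not stated. Without *Mir140*-null replicate 2 the 6 genes were still called lower, with log2 fold changes from -2.12 (*Fos*) to -1.20 (*Jund*). *Wwp2*, the host gene, was at 332 to 459 TPM in wild-type and at 261 to 394 TPM in *Mir140*-null.

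Wild-type replicate 1 had the highest level of *Fos*, *Fosb*, *Jun*, *Junb*, *Atf3*, *Egr1* and *Ier3* in wild-type, and it was also highest for heat-shock genes. The 16 heat-shock genes summed to 27630 TPM there, to 17435 to 18681 TPM in the other wild-type libraries and to 14955 to 21394 TPM in *Mir140*-null. None of the 16 was called in either direction by limma (at an unadjusted p under 0.05, 0 higher and 2 lower, against 19.0% and 14.9% of all genes tested, and median log2 fold change -0.11). *Hspa8* was at 4067 ± 1163 TPM in wild-type and 4278 ± 972 TPM for *Mir140*-null (0.08, adjusted p = 0.831), and *Hsp90aa1* at 2011 ± 908 and 1558 ± 461 TPM (-0.32, adjusted p = 0.495). Without wild-type replicate 1 the 6 AP-1 and immediate-early genes were still called lower, with log2 fold changes from -1.89 (*Fos*) to -1.05 (*Jund*). The part that cell isolation played in these levels was not tested, since no library was made without it and none is labelled with its handling.

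The *Mir140*-null libraries differed among themselves in markers of perichondrium and fibroblasts. The 6 marker genes summed to 587 and 741 TPM in *Mir140*-null replicates 1 and 2, against 3838 to 5271 TPM in replicates 3 and 4 and 3088 to 5909 TPM in wild-type. *Col1a1* was at 47.8 and 50.1 TPM in those 2 libraries and at 793 to 1544 TPM in the other 6. The same 2 libraries held the highest levels of *Ier3*. Of the perichondrial markers, *Pdgfra* was called higher (1.03, adjusted p = 0.00846), and *Col1a2* (-0.76, adjusted p = 0.301) and *Col3a1* (-1.82, adjusted p = 0.197) were not called. The part of this difference in the results was not tested beyond leaving the libraries out.

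Without *Mir140*-null replicates 1 and 2, which leaves 4 against 2 libraries, *Fosb* (-1.53, adjusted p = 0.0312), *Jund* (-0.95, adjusted p = 0.0140) and *Egr1* (-1.21, adjusted p = 0.0272) were still called lower. *Fos* (-1.87, adjusted p = 0.0776), *Jun* (-1.54, adjusted p = 0.0795) and *Atf3* (-1.54, adjusted p = 0.0568) kept their direction but were no longer called. Of the other immediate-early genes *Arc* (-2.17) and *Btg1* (0.99) were still called. Of the AP-1 targets *Mmp3* (2.60), *Mmp10* (1.06) and *Plau* (1.02) were still called higher and *Mmp13* (0.94) joined them.

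**Figure D4:**
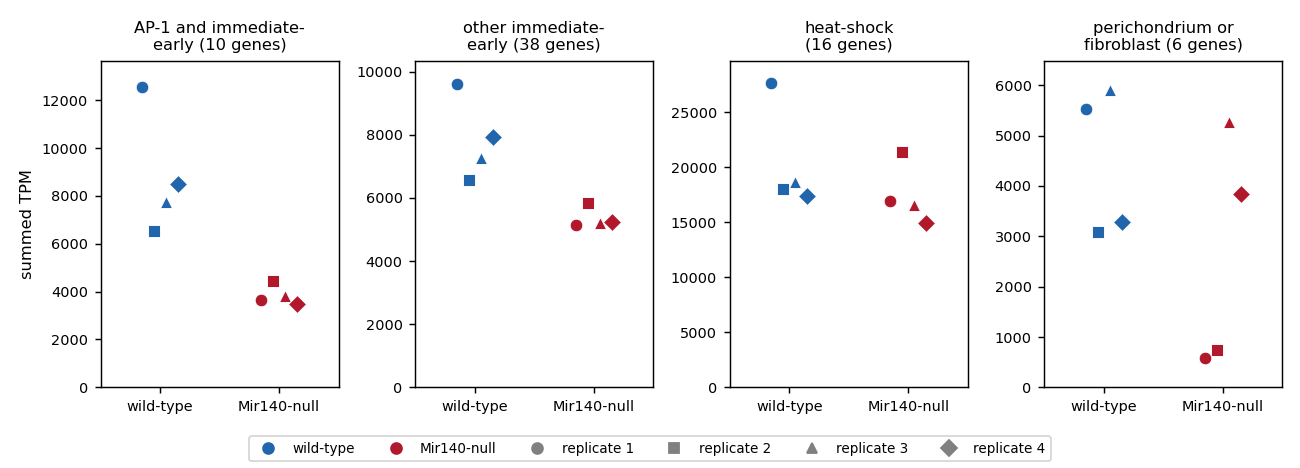
Summed TPM per library of the 10 AP-1 and immediate-early genes, 38 other immediate-early genes, 16 heat-shock genes and 6 perichondrium or fibroblast markers, by genotype, with the replicate number as the symbol. The first list is at 6531 to 12538 TPM in wild-type and 3501 to 4438 TPM in *Mir140*-null, the heat-shock genes overlap, and the perichondrial markers are at 587 and 741 TPM in *Mir140*-null replicates 1 and 2.

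Chondrocyte markers were abundant in all libraries, with the 12 genes summing to 64890 to 81099 TPM in wild-type and 48689.5 to 67843 TPM in *Mir140*-null. Most of this sum was *Col2a1*, at 47893.5 to 61630 TPM in wild-type and 34418 to 48361 TPM in *Mir140*-null, which was not called (-0.49, adjusted p = 0.0695). *Acan*, the aggrecan gene, was called higher (0.88, adjusted p = 0.0107). *Hapln1* (-0.57, adjusted p = 0.0100), *Col9a1* (-0.43, adjusted p = 0.0467) and *Col11a1* (-0.50, adjusted p = 0.0469) were called lower, and leaving out any 1 library gave 1 to 3 lower calls. Red cell markers summed to 646 to 1854 TPM in wild-type and 256 to 1725 TPM in *Mir140*-null, and none of *Hbb-bs*, *Hba-a1* and *Hba-a2* was called. The summed TPM of the muscle markers was lower in every *Mir140*-null library (33.5 to 57.3 TPM against 61.1 to 96.4 TPM). Each of the tested muscle genes overlapped between genotypes, and *Ckm*, *Myh3* and *Myh8* were under 1 TPM in every library and were not tested. None of the muscle genes *Tnnt3*, *Mylpf* and *Acta1* was called, and *Tnnt3* alone was lower at an unadjusted p under 0.05. Macrophage markers summed to 33.6 to 47.9 TPM in wild-type and 23.4 to 42.2 TPM in *Mir140*-null. Of these *Lyz2* was called lower (-0.74, adjusted p = 0.0243), and *Cd68* and *Acp5* were not called. *Lyz2* was near the floor, at 0.881 to 1.51 TPM in wild-type and 0.0455 to 0.617 TPM in *Mir140*-null. Neutrophil markers summed to 2.04 to 5.81 TPM in wild-type and 6.82 to 9.24 TPM in *Mir140*-null. Of these *Camp* was called higher (1.21, adjusted p = 0.0238) and *S100a8* and *S100a9* were not. Over all libraries the endothelial list summed to 3.41 to 27.1 TPM, the osteoblast list to 2.29 to 12.0 TPM and the adipocyte list to 27.6 to 76.1 TPM. Of these the tested endothelial (*Pecam1*, *Cdh5* and *Emcn* among them), osteoblast (*Bglap* and *Sp7*) and adipocyte (*Fabp4*) markers were not called, and like the red cell markers none passed an unadjusted p of 0.05. *Ibsp*, *Plin1* and *Adipoq* were under 1 TPM in every library and were not tested, and *Adipoq* was listed at 0 in some libraries. The part of these cell types in the levels of the 10 genes was not tested.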

How the data were processed

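RNA-seq of costal chondrocytes from 7-d-old wild-type and *Mir140*-null mice (4 libraries each, grouped by labelled genotype) was analysed. The values deposited by the authors are TPM for each Ensembl gene, made with Salmon on the mm10 transcriptome from single-end reads of stranded poly(A) libraries. These TPM hold neither the RUVSeq factors nor the DESeq2 normalization that the study applied afterwards, and the Salmon version is not given in the sources used here. Each file repeats 540 lines, and with identifiers counted once a library sums to 1000000. The paper gives a lower bound for the reads of a sample but not the depth of each library, so no counting interval was computed. Symbols, positions and 3′UTRs are those of GENCODE M21, where 99.8% of the identifiers were found.

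The test of genotype used limma (version 3.58.1, R 4.3.3) for genes of at least 0.5 TPM in at least 4 libraries, on log2(TPM + 1), with a mean-variance trend and genotype as the only term, two-sided. Fold changes on this scale understate changes of low genes. An adjusted p (Benjamini-Hochberg) under 0.05 was called. The fit was tested on simulated data. Figures used matplotlib 3.10.9 in Python 3.11.15.

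The 10 genes, the other gene lists and the alternatives were chosen with earlier results of these data known. Of each other list, up to 4 called genes of smallest adjusted p were named, and where fewer than 3 were called, genes of highest mean TPM were added until 3 were named. *Mir140* and *Wwp2* were also named, and other genes were chosen after their values were seen. The values of 1 gene that the rule selects are not reported here. Alternatives were a pseudocount of 0.1, no filter, a mean of at least 5 TPM, median-ratio scaling, TPM without mitochondrial genes, a replicate block, 1 factor of unwanted variation from residuals or from all but the 5000 genes of smallest p (by singular value decomposition), sample quality weights, and leaving out libraries. Columns of comparisons by the authors were not used.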

Additional observations from a re-analysis of the deposited data

How the results depend on the processing

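The 6 genes *Fos*, *Fosb*, *Jun*, *Jund*, *Atf3* and *Egr1* were lower in *Mir140*-null under each of 18 alternatives, and *Fosb* and *Egr1* were called in all 18 (highest adjusted p of limma 0.0431 and 0.0408). Leaving out each library in turn left 6 genes called lower throughout and 0 to 1 called higher, the latter being *Ier3* without *Mir140*-null replicate 3. Leaving out *Mir140*-null replicates 1 and 2, chosen after seeing the data, left 3 called lower. With 1 factor from residuals *Ier3* was called higher (1 of 10, adjusted p = 0.00123). This factor came from the residuals of the genotype fit itself, so it changed the spread of a gene and not its fold change. *Ier3* stayed at 1.10 while its standard error went from 0.38 to 0.09, so this call is no independent support. With 1 factor from least-changed genes 4 of 10 were called lower (*Jun* at 0.0596 and *Jund* at 0.0617 were lost). *Fosl1* turned to -0.13 with 1 factor from least-changed genes, to -0.17 without *Mir140*-null replicates 1 and 2, to -0.038 without *Mir140*-null replicate 2, and was at most 0.21 when single libraries were left out. *Fosl2* turned to 0.032 and 0.039 under the first 2 of these. The counts of all genes called higher and lower were 1797 and 1100. They were 977 and 539 with no filter, 979 and 426 with 1 factor from least-changed genes, 357 and 210 without *Mir140*-null replicates 1 and 2, and 779 to 1553 and 419 to 1214 without single libraries. The lower count was 605 at a mean of at least 5 TPM and 2016 with 1 factor from residuals. Median-ratio scaling moved the split to 1368 and 1320, with 6 of the 10 genes called lower. The cause was not tested. Of the other immediate-early genes 7 (without wild-type replicate 4) to 13 were called lower when single libraries were left out, 17 with 1 factor from residuals and 1 without *Mir140*-null replicates 1 and 2. Heat-shock genes called lower numbered at most 2 under any alternative. Replicate numbers are shared between genotypes in the labels, but nothing says that they pair samples, and the residuals of same-numbered libraries correlated at 0.03, 0.02, 0.07 and -0.01. Not every library correlated best with its own number. With the replicate block 671 genes were higher and 454 lower, 4 of the 10 genes (*Fos*, *Fosb*, *Jund* and *Egr1*) were called lower, and 3 of the other immediate-early genes were called lower. TPM hold no depth, so low genes such as *Batf3*, *Lyz2* and *Lor* carry an unknown counting error.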
